A study of Mus musculus with 11 samples.

Results

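The Slc25 genes encode the mitochondrial carrier family, the transporters of the inner mitochondrial membrane, and their mRNA was read in the tibialis anterior (TA), a fast muscle of the lower leg. Members were all genes of the array table whose symbol starts with Slc25a, with 1 symbol left out by the rule. They came to 43 genes with 49 probe sets, out of 21759 gene symbols and 28350 probe sets. Each gene was read at its brightest probe set, judged by the mean log2 signal of all mice. The table holds 3 further genes of the family under older symbols, which the rule does not take.

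Messenger RNA was measured on Affymetrix Mouse Gene ST 1.1 arrays in 11 male mice of 14 weeks of age, with a separate array for each mouse. The groups were 3 wild-type C57 mice, 4 untreated mdx mice and 4 treated mdx mice, all of the strain labelled C57/B10. The mdx mice, treated or not, carry a nonsense mutation in exon 23 of Dmd, the gene of dystrophin, in the whole body. Treated mice had received a single tail-vein injection of 12.5 mg/kg Pip6e-PMO at 12 weeks of age. Pip6e-PMO is a morpholino oligonucleotide joined to a cell-penetrating peptide, and it makes the splicing machinery skip the mutated exon. No mdx group injected with saline was analysed here, so that injection and drug cannot be told apart. The carriers were measured as mRNA only.

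Carriers of this family are built from 3 repeats of a pair of membrane helices and usually swap a substrate inside the mitochondrial matrix for another outside it. In muscle they bring ADP and phosphate to ATP synthase and send ATP out to the fibre. Others carry fatty acids as acylcarnitines, the malate, aspartate and glutamate of the shuttle that moves reducing equivalents, and the cofactors, nucleotides and iron that mitochondria need.

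Promoters of 3 members are shown, because they hold the letters of a binding motif of a regulator of mitochondrial genes. Slc25a34 had the largest fall of the family in mdx muscle, Slc25a20 is the carnitine carrier, which also fell, and Slc25a4 is the ADP/ATP translocase of muscle, which was not called in any comparison. The sequences are from RefSeq on GRCm38.p6, at chr4:141623785-141624084 (minus strand), chr9:108661886-108662185 (plus strand) and chr8:46211013-46211312 (minus strand). Each runs from 250 bases before the gene's start through the first 50 bases of the transcript, and capitals mark the motif.
Slc25a34: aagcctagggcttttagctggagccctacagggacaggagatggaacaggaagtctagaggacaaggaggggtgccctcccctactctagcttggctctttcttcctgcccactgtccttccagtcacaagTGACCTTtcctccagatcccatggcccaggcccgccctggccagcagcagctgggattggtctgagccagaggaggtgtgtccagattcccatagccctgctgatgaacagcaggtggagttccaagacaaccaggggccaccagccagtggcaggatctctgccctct
Slc25a20: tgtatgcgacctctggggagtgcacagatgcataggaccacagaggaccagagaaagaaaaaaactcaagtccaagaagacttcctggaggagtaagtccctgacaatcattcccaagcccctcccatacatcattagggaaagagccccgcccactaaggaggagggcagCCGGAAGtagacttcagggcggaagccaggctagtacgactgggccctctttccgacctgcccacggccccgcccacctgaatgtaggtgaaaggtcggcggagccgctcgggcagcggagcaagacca
Slc25a4: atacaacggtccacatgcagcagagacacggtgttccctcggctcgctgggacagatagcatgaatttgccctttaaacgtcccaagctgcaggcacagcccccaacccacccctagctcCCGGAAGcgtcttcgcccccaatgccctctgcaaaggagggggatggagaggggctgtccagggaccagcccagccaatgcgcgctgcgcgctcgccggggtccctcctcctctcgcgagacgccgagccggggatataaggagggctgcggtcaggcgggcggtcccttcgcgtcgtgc

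The motifs searched, on both strands, were the half-site of estrogen-related receptors (AAGGTCA), a site of the factor GABP (CCGGAAG) and the core of the site of NRF1 (GCATGCG). RefSeq promoters were found for 33 of the 43 members, with 40 promoters in all, since some genes have several starts. The half-site of estrogen-related receptors stood in 1 of these 40 promoters (2.5%), that of Slc25a34, where it lies on the opposite strand, against 4.72% of all 32851 promoters. The GABP letters stood in 5 of 40 (12.5%), those of Slc25a3, Slc25a4, Slc25a17, Slc25a20 and Slc25a38, against 8.86% of all promoters. The NRF1 letters were found in the promoter of Slc25a31 (2.5% of 40, against 3.58% of all). Of the 5 genes with the GABP letters, Slc25a20 was called in mdx against C57 muscle and the other 4 were not, beside 12.0% of all probe sets called. A match is a stretch of letters, and binding was not measured here.

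Of the 43 members, 35 reached a mean signal of 30 in at least 1 group and were tested. Slc25a2, Slc25a13, Slc25a14, Slc25a18, Slc25a21, Slc25a31, Slc25a41 and Slc25a48 did not. Every value below is a log2 signal or a difference between log2 signals unless a fold is named, and a signal belongs to its own probe set, so that genes cannot be ranked by it. A call stands for an adjusted p under 0.05 from limma, by the method of Benjamini and Hochberg over all 14494 probe sets tested. Muscle markers summed to a linear signal of 39911 to 41347 in the wild type, 40556 to 41568 in untreated and 39437 to 42894 in treated mdx mice, and all 6 reached a signal of 30. Dmd itself had a signal of 5.82 ± 0.05 (SD, n = 3) in the wild type, of 5.28 ± 0.50 (SD, n = 4) in untreated mdx mice and of 5.80 ± 0.37 (SD, n = 4) after treatment, with no call between mdx and C57 (adjusted p 0.198) or between treated and mdx mice (adjusted p 0.142). The medians of the 11 arrays lay between 27.5 and 28.6 on the linear scale.

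The family leaned downwards in mdx muscle. Of the 35 genes tested, 10 were called lower (28.6%) and 3 higher (8.57%), where 4.96% and 7.06% of all probe sets tested were called in those directions. Among those 3, Slc25a43 was below the minimum signal in C57 mice and was tested only through groups where it was higher. In either direction, 13 members (37.1%) were called beside 12.0% of all probe sets. The median difference of the members was -0.16 with 26 of 35 below 0, and that of all probe sets was -0.01. In whole muscle, fewer cells of a type and less RNA per cell cannot be told apart. Macrophage markers were higher in the same mice (summed linear signal 553 to 680 in C57 and 1385 to 2345 in mdx, over 5 of 5 markers), as were regenerating fibre markers (190 to 211 and 434 to 734, over 4 of 4 markers), while the sum of muscle markers overlapped. The part of these cells in the carriers' values was not tested. For comparison, 0 of the 11 genes of a mitochondrial content list (citrate synthase and subunits of the respiratory chain) were called by limma, although all 11 lay below 0, with the same median of -0.16, and 2 had an unadjusted p under 0.05. The methods' t-test called 0 of them too.

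**Figure D1:**
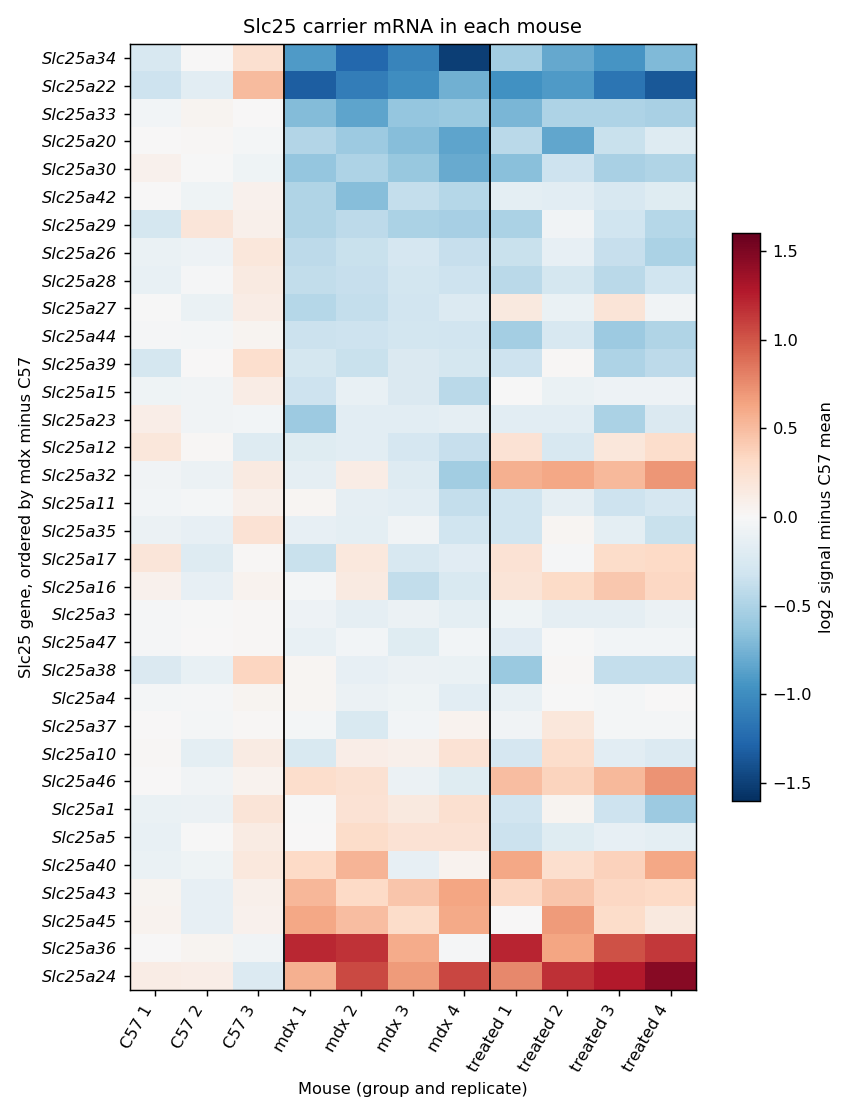
Signal of each of 34 tested Slc25 genes (rows, ordered by mdx minus C57) in each of the 11 mice (columns), as log2 signal minus the C57 mean of the gene, with red above and blue below that mean. The upper rows, headed by Slc25a34 and Slc25a22, are blue in the mdx and treated mice, and the lowest row, Slc25a24, is red in both.

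Slc25a34 and Slc25a22 had the largest falls among the members. Slc25a34, a relative of the yeast oxaloacetate carrier whose substrate in mammals is less settled, read 6.09, 6.35 and 6.61 in the C57 mice, 5.44, 5.09, 5.29 and 4.84 in the mdx mice and 5.80, 5.53, 5.41 and 5.64 in the treated mice. The mdx mice lay apart from all C57 mice, below them, and the difference of -1.19 (SE 0.16, adjusted p 0.000661) is a signal 2.27-fold lower. Slc25a22, a glutamate carrier, read 6.89, 7.05 and 7.73 in C57, 5.91, 6.12, 6.23 and 6.45 in mdx and 6.25, 6.32, 6.06 and 5.87 in treated mice. It was 2.06-fold lower in mdx muscle (difference -1.05, SE 0.20, adjusted p 0.00459), and the third C57 mouse, the highest of all, widened the gap. Leaving out each of the 11 mice in turn kept both calls. The methods' t-test with the same adjustment did not call Slc25a22 on log2 values (adjusted p 0.0847) or linear values (0.148), and did not call Slc25a34 on linear values (0.0535).

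Slc25a20, the carnitine/acylcarnitine carrier that brings long-chain fatty acids to beta-oxidation, read 9.20, 9.21 and 9.16 in C57, 8.72, 8.61, 8.51 and 8.34 in mdx and 8.76, 8.36, 8.83 and 8.98 in treated mice. The groups of C57 and mdx mice did not overlap, and the signal was 1.56-fold lower in mdx (difference -0.65, SE 0.14, adjusted p 0.0101). Other genes of the carnitine system went the same way. Cpt2, which takes the acyl group off carnitine inside the mitochondrion, was lower by limma's difference of -0.50 (adjusted p 0.0321). Cpt1b, the muscle enzyme that loads fatty acids onto carnitine, differed by -0.30 (adjusted p 0.0406), and Slc22a5, which brings carnitine into the cell, by -0.34 (adjusted p 0.0386). Thus 3 of the 5 listed genes of this system were called lower and 0 higher (beside 4.96% and 7.06% of all probe sets), while Crat (-0.24) and Cpt1a (0.16) were not called. The methods' t-test called 0 of the 5, and 3 had an unadjusted p under 0.05 in limma. The call of Slc25a20 held with each mouse left out in turn, whereas of all listed partner genes, 8 of which were called, 2 were called without the third C57 mouse and 1 without the second.

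Slc25a29, a carrier of basic amino acids, was lower too, with 5.64, 6.12 and 6.01 in C57 against 5.44, 5.51, 5.42 and 5.39 in mdx mice (difference -0.48, adjusted p 0.035). Its relative Slc25a45, whose substrate is less settled, was among the 3 members that rose, from 5.82, 5.63 and 5.83 to 6.38, 6.25, 6.05 and 6.37 (difference 0.50, adjusted p 0.0462). Slc25a15, the ornithine carrier, and Slc25a47, known from liver, were not called, with differences of -0.28 and -0.10. Slc25a44, a carrier of branched-chain amino acids, read 9.09, 9.08 and 9.15 in C57 and 8.76, 8.78, 8.81 and 8.80 in mdx mice. That difference of -0.32 (SE 0.09, adjusted p 0.0453) is small, and the values within each group lay close together. The calls of Slc25a29, Slc25a44 and Slc25a45 held in 4, 2 and 3 of the 11 fits that leave out 1 mouse.

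Of the 8 tested members for nucleotides, cofactors and vitamins, 3 were called lower and 0 higher, beside 4.96% and 7.06% of all probe sets. Slc25a33, a carrier of pyrimidine nucleotides, read 7.27, 7.35 and 7.31 in C57, 6.61, 6.47, 6.69 and 6.71 in mdx and 6.58, 6.82, 6.81 and 6.79 in treated mice. Both mdx groups lay below all C57 mice, and untreated mdx muscle was 1.61-fold lower (difference -0.69, SE 0.10, adjusted p 0.000782). Slc25a42, which carries coenzyme A in exchange for adenine nucleotides, read 8.63, 8.56 and 8.70 in C57 and 8.15, 7.95, 8.25 and 8.17 in mdx mice, a difference of -0.50 (adjusted p 0.00453). Slc25a26, the carrier of S-adenosylmethionine, differed by -0.35 with an adjusted p of 0.0558, and its groups did not overlap.

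Slc25a28, the mitoferrin that brings iron into mitochondria outside the blood-forming tissue, read 8.01, 8.11 and 8.28 in C57 and 7.74, 7.76, 7.84 and 7.80 in mdx mice (difference -0.35, adjusted p 0.0277). Its call held in 6 of the 11 fits that leave out 1 mouse. The other mitoferrin, Slc25a37, which serves red cell precursors, was not called (difference -0.07, 95% confidence interval -0.28 to 0.15), and neither were the glutathione carriers Slc25a39 (-0.29) and Slc25a40 (0.20). Among 12 listed genes of haem and iron-sulfur cluster synthesis, Alad, an early enzyme of haem synthesis, was called lower in mdx muscle (difference -0.67, adjusted p 0.00656), and the other 11 were not called. That is 8.33% of the list, beside 4.96% of all probe sets called lower. Red blood cell markers summed to 11058 to 17962 in C57 and 11770 to 16779 in mdx mice, so that the groups overlapped.

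Slc25a30, an uncoupling-like carrier also called KMCP1, read 7.09, 7.01 and 6.95 in C57, 6.40, 6.52, 6.41 and 6.21 in mdx and 6.35, 6.69, 6.50 and 6.54 in treated mice. The 1.55-fold fall in mdx muscle (difference -0.63, SE 0.11, adjusted p 0.00245) left no overlap with C57. Slc25a27, the other tested carrier of that group, differed by -0.34 and was just outside the threshold (adjusted p 0.063). Ucp3, the uncoupling protein of skeletal muscle and a listed neighbour outside the Slc25a symbols, fell further, from 9.27, 9.20 and 9.28 to 7.98, 8.46, 8.87 and 8.18 (difference -0.88, adjusted p 0.0307). Ppara, a nuclear receptor that drives genes of fatty acid oxidation, was the called member of the 8 listed regulators, with a difference of -0.70 (adjusted p 0.0186). This is 12.5% of that list, beside 4.96% of all probe sets called lower. Esrra, an estrogen-related receptor whose half-site was searched in the promoters, was not called (difference -0.12).

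**Figure D2:**
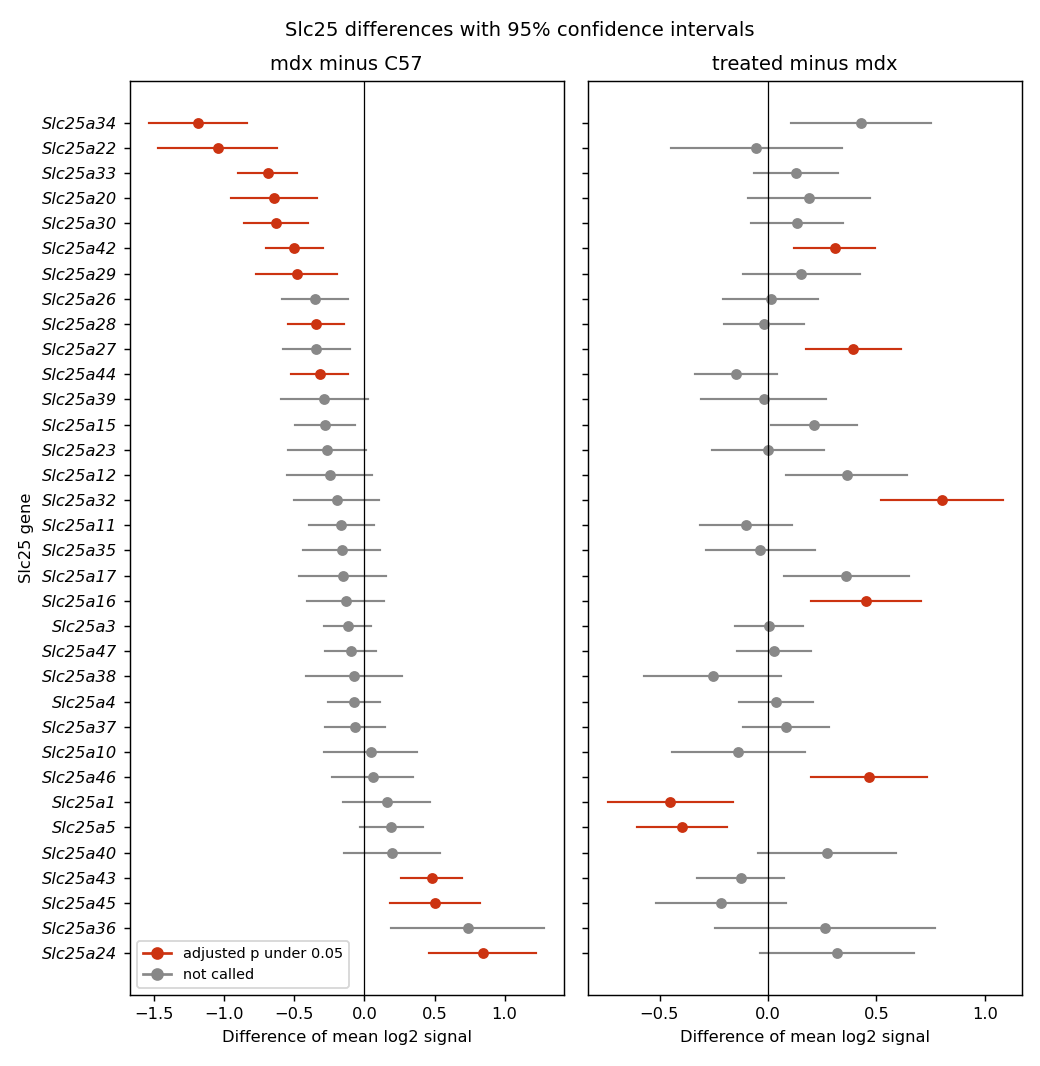
Differences of mean log2 signal (points) with 95% confidence intervals from limma (lines) for 34 tested Slc25 genes, mdx minus C57 (left) and treated minus mdx (right), red where the adjusted p was under 0.05. On the left 9 red points lie below 0 and 3 above, and on the right 2 lie below and 5 above.

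Against this lean, Slc25a24 rose. This calcium-regulated carrier of ATP-Mg and phosphate read 5.29, 5.28 and 4.96 in C57, 5.74, 6.23, 5.86 and 6.25 in mdx and 5.94, 6.34, 6.44 and 6.63 in treated mice. All 8 mdx mice, treated or not, lay above all 3 C57 mice, and untreated mdx muscle was 1.79-fold higher (difference 0.84, SE 0.18, adjusted p 0.0082). Its relative Slc25a23 lay lower in mdx mice without a call, at 7.45, 7.29 and 7.30 against 6.76, 7.18, 7.18 and 7.20 (difference -0.27, adjusted p 0.227). Slc25a43, whose substrate is less settled, read 4.67, 4.49 and 4.71 in C57 and 5.15, 4.94, 5.07 and 5.25 in mdx mice (difference 0.48, adjusted p 0.00786). Macrophage and fibroblast markers were higher in mdx muscle too (fibroblast sums 3457 to 4726 in C57 and 5020 to 6283 in mdx, over 5 of 5 markers), and their part in these 2 rises was not tested.

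The main carriers of ATP and phosphate in muscle were not called. Slc25a4, the ADP/ATP translocase of muscle, read 12.73, 12.75 and 12.81 in C57, 12.80, 12.67, 12.70 and 12.59 in mdx and 12.65, 12.76, 12.73 and 12.77 in treated mice. Between mdx and C57 mice it differed by -0.07, with a 95% confidence interval of -0.26 to 0.11. Slc25a3, the phosphate carrier, read 11.88, 11.89 and 11.92 in C57 and 11.82, 11.75, 11.80 and 11.74 in mdx mice, a difference of -0.12 (interval -0.29 to 0.05) that was not called although the groups did not overlap. Slc25a11, the oxoglutarate/malate carrier, and Slc25a12, the aspartate/glutamate carrier of muscle, are the inner-membrane members of the malate-aspartate shuttle. Their differences were -0.16 (interval -0.39 to 0.07) and -0.25 (interval -0.55 to 0.05). Of the shuttle's 4 listed enzymes, Got1, the cytosolic aspartate aminotransferase, was called lower (difference -0.35, adjusted p 0.0494), and Got2, Mdh1 and Mdh2 were not. The deposited annotation marks the probe set of Got2 as open to cross-hybridization, that is, to binding other sequences. Of all probe sets, 4.96% were called lower.

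Among the other listed partners, 0 of the 11 genes for import of carriers into the inner membrane were called by limma in mdx against C57 muscle, and 1 had an unadjusted p under 0.05. The methods' t-test also called 0. For the 3 Vdac channels of the outer membrane both tests called 0, with 0 at an unadjusted p under 0.05 in limma and differences of -0.16 to -0.19. Of the 70 listed partners 67 were tested (Ucp1 and Ckmt1 were below 30, and Smdt1 had no match), and 1 was called higher and 7 lower (1.49% and 10.4%, beside 7.06% and 4.96% of all probe sets). The rise was that of Micu2 (Efha1 in the table), a regulator of the calcium uniporter (difference 0.51, adjusted p 0.0329). The probe sets of Tomm20, Tomm22, Timm8a1, Agk, Vdac3, Mtch2, Iscu and Mpc1 (Brp44l in the table) are likewise marked as open to cross-hybridization. Their values may hold signal of other sequences, which limits the missing calls of these genes.

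In treated against untreated mdx muscle, 5 of the 35 members were called higher (14.3%) and 2 lower (5.71%), where 7.26% and 3.88% of all probe sets were called in those directions. In either direction 7 members (20%) were called beside 11.1% of all probe sets, and the median of the members was 0.04, near the 0.02 of all probe sets. The calls were less stable than those between mdx and C57. Leaving out 1 mouse left between 1 and 12 calls, with 1 call without mdx mouse 3 or 4 or treated mouse 1, 3 or 4, and 12 without the second treated mouse. The methods' t-test called 0 members, with 11 at an unadjusted p under 0.05.

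Slc25a32, the carrier that brings folate, and by other accounts FAD, into mitochondria, had the largest difference. It read 6.02, 5.98 and 6.21 in C57, 5.93, 6.19, 5.86 and 5.51 in mdx and 6.64, 6.69, 6.59 and 6.78 in treated mice. All treated mice lay above every other mouse, at 1.74-fold over mdx (difference 0.80, SE 0.13, adjusted p 0.00787) and 1.52-fold over C57 (difference 0.61, adjusted p 0.00974), and mdx was not called against C57 (-0.20, adjusted p 0.428). Of the 7 calls between treated and mdx mice, its call alone held in all 11 fits that leave out 1 mouse.

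Slc25a42 moved up from its low mdx level. Treated mice read 8.48, 8.46, 8.37 and 8.44, above every mdx mouse and below every C57 mouse (difference 0.31 from mdx, adjusted p 0.0411, and -0.19 from C57, adjusted p 0.143). Slc25a27 read 6.14, 6.04 and 6.27 in C57, 5.69, 5.77, 5.84 and 5.93 in mdx and 6.31, 6.04, 6.36 and 6.09 in treated mice, so that treated mice lay above all mdx mice, 2 of them within the range of the C57 mice and 2 above it (difference from mdx 0.39, adjusted p 0.0326). Slc25a16, a carrier linked to coenzyme A, read 8.85, 8.65 and 8.84 in C57, 8.75, 8.92, 8.39 and 8.53 in mdx and 8.99, 9.09, 9.21 and 9.11 in treated mice. Its treated mice were the highest of all (difference from mdx 0.45, adjusted p 0.0326). Slc25a46, an outer-membrane relative with a part in mitochondrial shape, read 8.06, 8.00 and 8.11 in C57, 8.34, 8.30, 7.96 and 7.86 in mdx and 8.55, 8.41, 8.58 and 8.78 in treated mice (difference from mdx 0.47, adjusted p 0.0354). A second probe set under the symbol Slc25a46, with lower signal, differed by 0.03 (adjusted p 0.853). It is placed on the plus strand, whereas the first is on the minus strand. Whether it reads the mRNA of the gene was not tested, so that it does not bear on the rise.

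**Figure D3:**
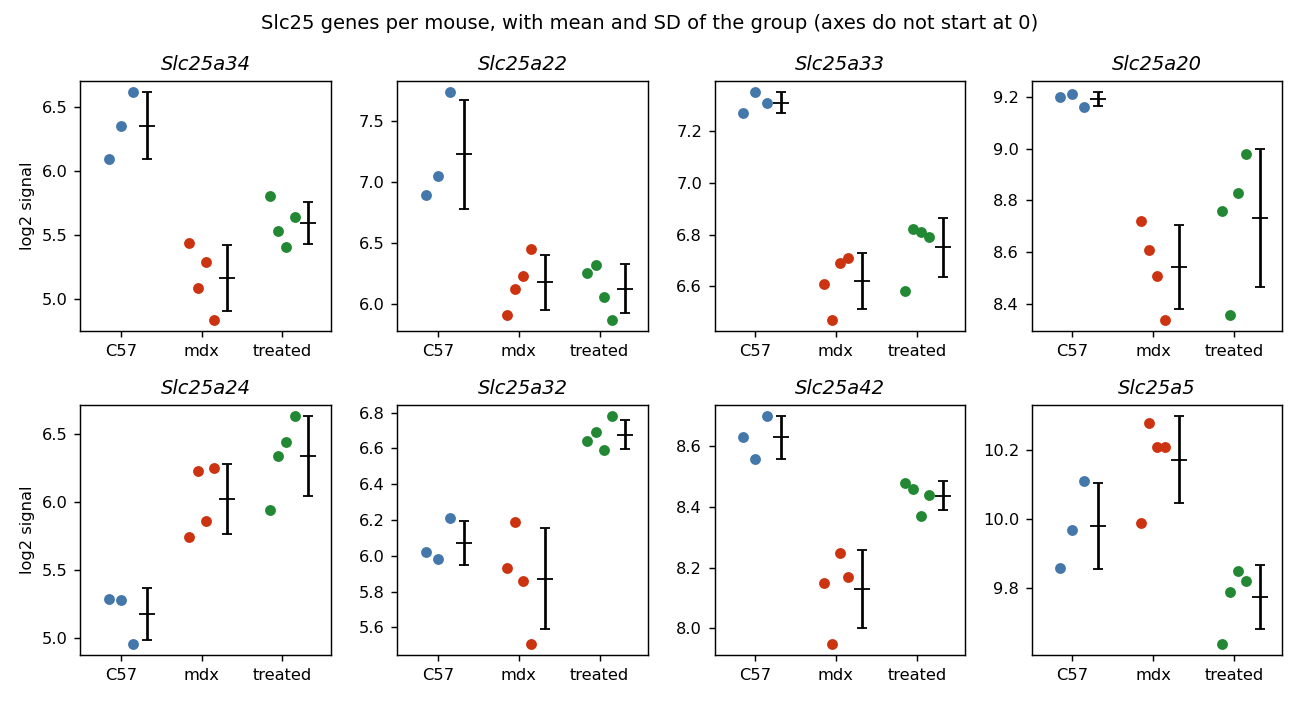
Log2 signal of 8 Slc25 genes in each mouse (points) with the mean and SD of each group (black bars) for 3 C57, 4 mdx and 4 treated mice. Slc25a34, Slc25a22, Slc25a33, Slc25a20 and Slc25a42 are lower in mdx than in C57 mice, Slc25a24 is higher, Slc25a32 is highest in treated mice and Slc25a5 is lowest in them.

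The 2 members that fell after treatment were Slc25a5 and Slc25a1. Slc25a5, the ADP/ATP translocase of growing cells and of many tissues, read 9.86, 9.97 and 10.11 in C57, 9.99, 10.28, 10.21 and 10.21 in mdx and 9.64, 9.79, 9.85 and 9.82 in treated mice. Treated mice lay below all others, with a difference of -0.40 from mdx (SE 0.10, adjusted p 0.0264). The probe set used is placed on chromosome 5 while the gene lies on chromosome X, and the deposited annotation marks all 3 of its probe sets as open to cross-hybridization. The X chromosome probe set gave -0.39 (adjusted p 0.0242) and the remaining one -0.43 (adjusted p 0.0187). Sums of macrophage markers reached lower values in the same comparison (from 1385 to 2345 before and 863 to 1570 after treatment, overlapping), as did regenerating fibre markers (434 to 734 and 245 to 460, overlapping). Their part in the fall of Slc25a5 was not tested.

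Slc25a1, the citrate carrier, whose citrate feeds the making of fatty acids, read 7.35, 7.36 and 7.67 in C57, 7.45, 7.69, 7.61 and 7.72 in mdx and 7.15, 7.51, 7.13 and 6.88 in treated mice. The second treated mouse lay within the mdx range, and the difference of -0.45 only just passed (adjusted p 0.0485). Fat cell markers moved with it, with summed linear signals of 554 to 945 in the wild type, 410 to 1280 in untreated and 175 to 559 in treated mdx mice over 5 of 5 markers, and their part in the fall was not tested.

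The second translocase was set against the first within each array, as Slc25a4 minus Slc25a5, which removes differences between arrays that both probe sets share. This balance was 2.87, 2.78 and 2.70 in the C57 mice (mean 2.78 ± 0.09, SD, n = 3). It was 2.81, 2.39, 2.49 and 2.38 in the mdx mice (mean 2.52 ± 0.20, SD, n = 4) and 3.01, 2.97, 2.88 and 2.95 after treatment (mean 2.95 ± 0.05, SD, n = 4). The first mdx mouse lay among the C57 mice and the other 3 below them, and the treated mice were above all the others. Treated exceeded mdx mice by 0.43 (exact permutation test, two-sided, p = 0.0286, the smallest that 70 arrangements of 4 against 4 allow). Slc25a4 itself differed by 0.04 between these groups and Slc25a5 by -0.40, with the groups apart in Slc25a5 alone. The balance thus largely restates the fall of Slc25a5 and is no separate support for it. The difference between mdx and C57 of -0.27 did not reach a p under 0.05 (exact permutation test of 35 arrangements, two-sided, p = 0.114). The level of the balance has no meaning on its own, since it joins 2 probe sets, and only its differences between groups are read. With the X chromosome probe set of Slc25a5, chosen after the data were seen, the difference between treated and mdx mice was 0.43. That probe set is open to cross-hybridization too, so that this is no independent check.

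**Figure D4:**
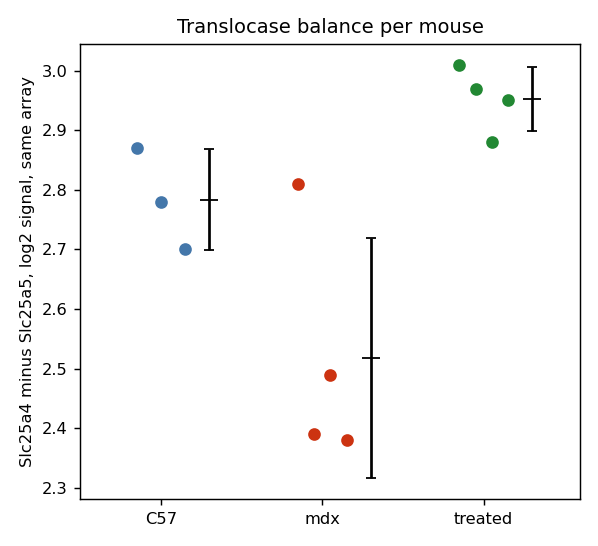
Slc25a4 minus Slc25a5, as log2 signal within the same array, for each mouse (points) with the mean and SD of the group (black bars). The 4 treated mice sit between 2.88 and 3.01, above the 4 mdx mice at 2.38 to 2.81.

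Treated mice were also set against C57 mice, to see which carriers differed from the wild type after treatment. This comparison had 9 members lower (25.7%) and 6 higher (17.1%), beside 8.96% and 15.6% of all probe sets, and thus 15 of 35 called (42.9%) beside 24.6%. It shares the C57 mice with the comparison of mdx and C57 and the treated mice with that of treated and mdx, and is independent of neither. Slc25a22 differed from C57 by -1.05 in mdx and -1.10 in treated mice (adjusted p 0.00273 for the latter). Slc25a28 differed by -0.35 and -0.37 (adjusted p 0.0142). For these 2 genes the treated mice overlapped the untreated mdx mice, with differences from mdx of -0.05 and -0.02 and 95% confidence intervals of -0.45 to 0.34 and -0.20 to 0.17.

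Slc25a34 differed from C57 by -1.19 in mdx and -0.76 in treated mice (adjusted p 0.00673), and its difference of 0.43 between treated and mdx mice was not called (adjusted p 0.0766). Slc25a33 differed by -0.69 and -0.56 (adjusted p 0.00232), Slc25a30 by -0.63 and -0.50 (adjusted p 0.00676) and Slc25a20 by -0.65 and -0.46 (adjusted p 0.0333). Treated means of these 4 genes lay between those of mdx and C57 mice, and none differed from mdx in the limma test. Slc25a44 read 8.56, 8.85, 8.52 and 8.63 in treated mice (-0.47 from C57, adjusted p 0.00509), overlapping the mdx mice (difference -0.15, adjusted p 0.267), and Slc25a26 was called at -0.34 from C57 (adjusted p 0.0402). The calls of Slc25a20 and Slc25a26 against C57 held in 6 and 4 of the 11 fits that leave out 1 mouse, and both were lost with the replicate block and in a fit of the treated and C57 mice alone.

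Among the 6 genes higher in treated than in C57 mice, Slc25a24 had the largest difference (1.16, adjusted p 0.00111, 2.24-fold). Slc25a36, a carrier of pyrimidine nucleotides, read 6.16, 6.20 and 6.10 in C57, 7.36, 7.31, 6.75 and 6.14 in mdx and 7.37, 6.78, 7.17 and 7.29 in treated mice. The fourth mdx mouse lay at the C57 level, and treated mice were 1.00 above C57 (adjusted p 0.0148) without a call between mdx and C57 (0.74, adjusted p 0.0812). That probe set is placed on chromosome 2 and open to cross-hybridization, whereas the gene lies on chromosome 9. The probe set on chromosome 9, which has no such mark, read 6.35, 6.26 and 6.27 in C57, 6.70, 6.93, 6.57 and 6.19 in mdx and 7.47, 6.92, 7.34 and 7.38 in treated mice. Its difference between treated and C57 mice was also close to 1 (0.98, adjusted p 0.00229), but it was called between treated and mdx mice as well (0.68, adjusted p 0.0239), where the first probe set was not (0.26, adjusted p 0.465). The other 4 were Slc25a32 (0.61), Slc25a46 (0.52), Slc25a40 (0.47, adjusted p 0.0492) and Slc25a43 (0.35, adjusted p 0.0238). Slc25a40 and Slc25a43 were below the minimum signal in C57 mice and were tested only through groups where they were higher. Slc25a40 reached a mean linear signal of 30.7 in treated mice alone. Its call was lost with no minimum signal, and held in 3 of the 9 fits with 1 mouse left out that tested it.

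The partner genes called in treated against mdx muscle were all higher, 6 of 67 (8.96%, with 0 lower, beside 7.26% and 3.88% of all probe sets), and 17 of the 67 had an unadjusted p under 0.05. Gabpa, a subunit of GABP, read 5.61, 5.70 and 5.87 in C57, 5.74, 5.74, 5.71 and 5.46 in mdx and 6.36, 6.01, 6.39 and 6.68 in treated mice, so that treated mice lay above all others (difference from mdx 0.70, adjusted p 0.0143). Ndufs1 and Sdha, subunits of respiratory complexes I and II, differed by 0.80 and 0.47 (adjusted p 0.0263 for each), Vdac3 by 0.48 (adjusted p 0.025), the cytosolic malate dehydrogenase Mdh1 by 0.54 (adjusted p 0.0326) and Micu2 by 0.47 (adjusted p 0.0393). The probe set of Vdac3 is open to cross-hybridization. Members with the GABP letters in their promoter differed between treated and mdx mice by 0.36 for Slc25a17, 0.19 for Slc25a20, 0.04 for Slc25a4, 0.00 for Slc25a3 and -0.26 for Slc25a38. None of these 5 was called, beside 11.1% of all probe sets called in either direction.

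The second treated mouse stood away from the other 3 in several members. Slc25a12 read 12.16, 11.67, 12.11 and 12.21 in treated mice, and 11.73, 11.76, 11.65 and 11.56 in mdx mice. The second mouse thus lay with the mdx group and the other 3 above it, and the difference of 0.36 was not called (adjusted p 0.082). Slc25a20 was likewise lowest in that mouse. Without it, Slc25a12, Slc25a17, Slc25a20, Slc25a44 and Slc25a45 were called in addition to the 7 members, and 16 partners in place of 6, while the share of all probe sets called went from 11.1% to 28.4%. The study reports the lowest exon skipping (RT-qPCR) and dystrophin (mass spectrometry) in its treated sample T2, whose mRNA also clustered nearer to mdx. Its western blot values did not correlate significantly with either measure. T2 was taken to be this mouse by its number alone, and a part of low efficacy in these values was not tested.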

How the data were processed

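TA mRNA of 11 mice was measured on Affymetrix Mouse Gene ST 1.1 arrays, 1 per mouse. The authors processed the arrays in Affymetrix Expression Console by RMA (background correction, quantile normalization and median polish) and deposited intensities on the linear scale. Their log2 lay on whole hundredths, and the 3 or 4 arrays per group limit the precision. RMA draws array distributions together, so that a shift of all genes is not seen. No column was left unused (0), and positions in the table name no genome build.

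After the study's methods, the test took in probe sets that reached a mean signal of 30 in 1 or more groups. limma 3.58.1 in R 4.3.3 fitted a mean per group to the log2 intensities of the 11 mice (lmFit, eBayes, two-sided), with Benjamini-Hochberg adjustment over all probe sets tested. The procedure was tested on simulated data. The balance of Slc25a4 and Slc25a5 used exact permutation tests. Named are the members called (except 1 that is not reported here, though counted), the members of each transport group by counts and examples, the brightest members, and partner genes that were called, with some that were not, added after their values were seen. Members, lists and motifs were chosen with earlier results of these data known. All 43 members were found by Entrez identifier in RefSeq. Motifs and plots used Python 3.11.15, pandas 2.3.3, NumPy 2.4.6 and matplotlib 3.10.9. Alternatives were the study's threshold (unadjusted p under 0.01 and 1.5-fold), its t-test on log2 and linear values, other fits, priors, weights, filters, scalings and probe set rules, a replicate block and leaving out each mouse. That threshold was set here on limma's p, whereas the study set it on the p of a t-test.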

Additional observations from a re-analysis of the deposited data

Results flagged for a closer look

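In 8 of 86 groups of 4 mice examined, Dixon's test flagged 1 mouse against the other 3. The test sets the gap against the range of the 4 values, so that even a small gap is flagged where the other 3 are equal. Chance flags about 1 in 20 such groups where values have no ties. The values here lie on whole hundredths of log2 and some are tied, so that the count cannot be held against that rate. Among tested members, the first mdx mouse read 6.76 for Slc25a23 against 7.18 to 7.20 in the others. Slc25a33 read 6.58 in the first treated mouse against 6.79 to 6.82. The second treated mouse was high for Slc25a37, at 7.86 against 7.62 to 7.65, and for Slc25a43, at 5.07 against 4.94 to 4.95. The remaining 4 values belong to genes below the minimum signal, with 4.16 for Slc25a14 in the fourth mdx mouse (4.25 in the others), 2.27 for Slc25a31 in the third treated mouse (2.47 to 2.50), and, for Slc25a48, 4.28 in the second mdx mouse (4.31 in the others) and 4.03 in the first treated mouse (4.31 to 4.34).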

How the results depend on the processing

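Under the alternatives run, no called difference changed direction. Differences near 0 that were not called did with a mouse left out, as between treated and mdx mice for Slc25a22 (-0.14 to 0.04), Slc25a28 (-0.05 to 0.00) and Slc25a3 (-0.01 to 0.02). Between mdx and C57 mice, the 13 Slc25 calls became 6 at the study's threshold, set here on limma's p. They became 6 and 5 with the methods' t-test on log2 and linear values and 8 with a minimum signal of 100, which tests fewer genes. The 8 partner calls became 3 at that threshold, 0 and 1 with those t-tests and 17 with array weights. The 0 stands beside 17 partners at an unadjusted p under 0.05 in limma. Between treated and mdx mice, the 7 Slc25 calls became 1 at the study's threshold, 0 and 0 with the t-tests (11 at an unadjusted p under 0.05), 2 in a fit of these groups alone and 13 with array weights, and the 6 partner calls became 2, 0, 0, 2 and 15. Between treated and C57 mice, the 15 Slc25 calls became 5, 8, 5 and, with array weights, 24. The share of all probe sets called moved as well: at the study's threshold, with the t-tests on log2 and linear values and with array weights it was 7.55%, 5.46%, 3.71% and 23.3% between mdx and C57 mice (12.0% as reported), 5%, 0.607%, 0.531% and 31.8% between treated and mdx mice (11.1%), and 11.2%, 8.79%, 6.06% and 45.2% between treated and C57 mice (24.6%). The cause was not tested.

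Leaving out 1 mouse at a time, the Slc25 calls ranged from 9 to 15 (mdx against C57), from 1 to 12 (treated against mdx) and from 10 to 20 (treated against C57), and the partner calls from 1 to 12 and from 1 to 16, the highest each time without the second treated mouse. The balance of Slc25a4 and Slc25a5 ranged from -0.36 to -0.22 between mdx and C57 mice and from 0.39 to 0.53 between treated and mdx mice. In the latter, the exact permutation p was 0.0571 with any 1 treated mouse left out and 0.0286 with any 1 mdx mouse left out.

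Replicate numbers did not pair the mice: 1 of 10 same-number pairs had a correlation of deviations over 0.1 (range -0.30 to 0.15), and 1 of 11 mice correlated best with its own number. The replicate block gave 10 Slc25 calls and 1 partner call between mdx and C57 mice, 2 and 1 between treated and mdx mice, 11 Slc25 calls between treated and C57 mice, and a balance of 0.43 between treated and mdx mice (exact sign-flip test, p = 0.125, which 4 pairs cannot undercut). Counting probe sets with identical values once (674 share all values) was chosen after the data were seen and moved no count of calls by over 1.5 times.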
